A study of Mus musculus with 3 samples.

Results

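The genes described here are those of the NF-kappaB transcription factor family and its regulators: the subunit genes Rel, Rela, Relb, Nfkb1 and Nfkb2, the inhibitor genes Nfkbia and Nfkbie, the genes of the nuclear IkappaB proteins Nfkbiz and Bcl3, and the protease gene Malt1. They were chosen by the gene name in the array annotation, 10 genes of the 24171 on the array, measured by 22 of its 44170 probe sets, each named by the transcript it was designed on. The choice was made with earlier results of these arrays known, among them the high Rel signal, so every difference below is a description of 3 arrays. Total RNA came from 3 populations sorted from the spleen of wild-type (WT) C57/BL6 mice aged 8 weeks: natural killer B (NKB) cells, natural killer (NK) cells and B cells. No group carried a treatment or an altered gene, each population was hybridised to 1 array, and the number of animals behind each RNA and the sort gate are not given in the sources used here. With 1 array per population there is no spread between samples, and no difference could be tested.

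NF-kappaB factors are dimers of subunits that share a Rel homology domain, and IkappaB proteins hold them inactive in the cytoplasm. When a receptor signals, the IkappaB kinase (IKK) marks IkappaB for destruction and the dimers enter the nucleus, where they switch on genes that include those of their own inhibitors. In B cells the antigen receptor and the receptor for the survival factor BAFF feed this pathway, and c-Rel supports B cell proliferation after activation.

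The deposited values are array intensities on a linear scale, already normalised between arrays with RMA. A gene was taken as detected on an array where its intensity, averaged over its probe sets on the log2 scale, exceeded a detection level, the 95th percentile of 901 genes for odorant and pheromone (olfactory and vomeronasal) receptors, which was 136 for NKB, 140 for NK and 149 for B. Genes under the level were set to it before a difference was taken, and a gene was called higher or lower at a 2-fold difference. The fold of a single probe set, or of a gene with 1, is marked "at least" where the lower value was under the level. An average over several probe sets takes in single readings under the level, so its fold is no bound, and setting each probe set to the level before averaging was tried as an alternative chosen after seeing the data. With no level set, the share of these receptor genes past 2-fold was 20.9% for NKB against B, 21.0% for NKB against NK and 13.9% for NK against B, which gives the noise at low signal. The defining B cell markers were detected in 8 of 8 genes on NKB, 1 on NK and 8 on B. Their summed intensities were 24923 in NKB, 626 in NK and 23866 in B. The NK cell markers were detected in 7 of 10 genes on NKB, 10 on NK and 1 on B. Their summed intensities were 5766 in NKB, 28793 in NK and 667 in B, and the marker Gzma alone read 4098 in NKB. Against the NK array, 9 of these 10 genes were called lower on NKB and 0 were called higher, with a median log2 difference of -2.61. Of 11 macrophage and monocyte markers 9 were detected on NKB, 10 on NK and 1 on B, with summed intensities of 7946 in NKB, 8471 in NK and 913 in B. Of 8 kidney markers, a list written with earlier results known, 5 were detected on NKB, 0 on NK and 1 on B, with summed intensities of 4509 in NKB, 451 in NK and 476 in B. Dendritic cell markers were detected in 1 of 6 genes on each array, T cell markers in 3 of 7 on NKB, 4 on NK and 2 on B, erythroid markers in 3 of 8 on NKB, 4 on NK and 3 on B, with summed intensities of 9590 in NKB, 6028 in NK and 1322 in B, neutrophil markers in 1 of 8, on NK alone, and platelet markers in 0 of 5. The part of such other cells in the values below was not tested, and in RNA from sorted populations fewer cells of a type and less RNA per cell cannot be told apart.

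In NKB cells Rel stood far above both other populations, while most of the remaining NF-kappaB genes were at or below the B cell level. Against B cells, 2 of the 10 genes were higher in NKB (Rel and Malt1) and 5 were lower (Rela, Relb, Nfkb2, Nfkbia and Bcl3). Over all genes detected on either of these arrays, 14.3% were higher and 15% were lower. Against NK cells, 2 were higher (again Rel and Malt1) and 3 lower (Rela, Relb and Nfkbia), beside 17.3% higher and 15.1% lower of the genes detected on either array. All 10 genes were detected on NKB or B, and 9 on NKB or NK, the exception being Bcl3. The median log2 difference of the 10 genes was -1.05 for NKB against B and -0.35 for NKB against NK, and over all detected genes it was -0.06 and 0.0059. The value against NK counts the undetected Bcl3 (-0.05), whereas the median over all genes leaves such genes out. Without Bcl3, the middle value of the other 9 against NK was that of Nfkbiz, -0.65. These 2 comparisons share the NKB array. The calls of Rel and Nfkbia held in both comparisons under all 9 alternative settings. With each probe set at the level before averaging, Rela (-0.79), Bcl3 (-0.90) and Malt1 (0.98) were no longer called against B, nor Rela (-0.88) and Relb (-0.62) against NK. With the brightest probe set of each gene, Nfkb2, Bcl3 and Malt1 were no longer called against B (log2 differences -0.56, -0.46 and 0.92) and Relb no longer against NK (-0.28), nor with the median over its probe sets (-0.60). With the stricter detection level of the 99th percentile, Rela (-0.87), Relb (-0.77), Bcl3 (-0.77) and Malt1 (0.27) were no longer called against B, nor Rela (-0.96), Relb (-0.78) and Malt1 (0.27) against NK.

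**Figure D1:**
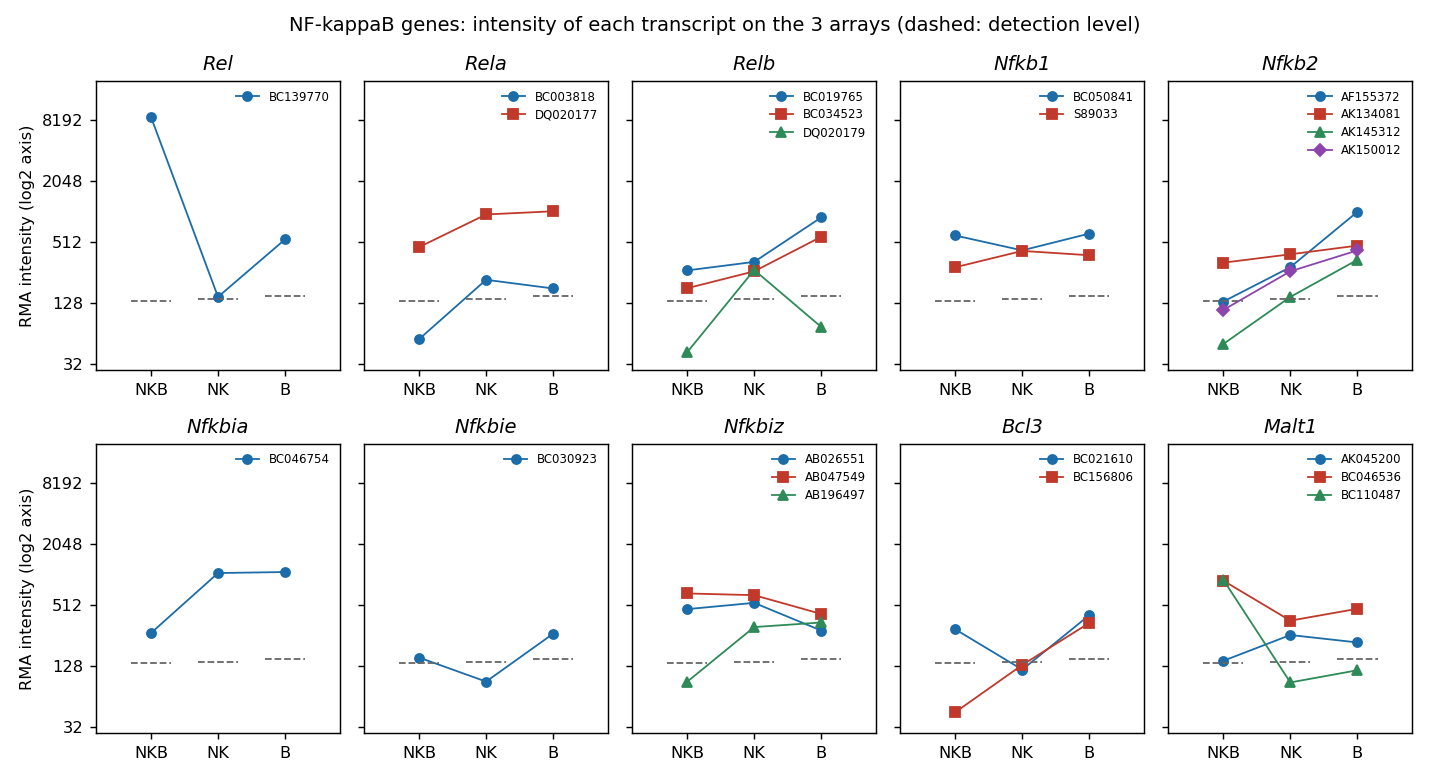
Intensity (log2 axis) of every probe set of the 10 genes on the NKB, NK and B arrays, 1 array per population, with lines joining the values of 1 probe set and dashed marks at the detection level of each array. Rel reads 8866 on NKB, 148 on NK and 548 on B, whereas Nfkbia and the Nfkb2 probe sets are lowest on NKB.

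Rel encodes c-Rel, a subunit with a transactivation domain that is found mainly in lymphoid and myeloid cells. Its 1 probe set (BC139770, chr11:23642136-23670912 on build MM9) read 8866 in NKB cells, 148 in NK cells and 548 in B cells. The NKB value was therefore 59.8-fold above NK and 16.2-fold above B, log2 differences of 5.90 and 4.02. The difference from NK was 4.45 with the level at the 99th percentile. Among genes detected on either array this was the second largest excess over NK of 8165 genes and rank 10 of 7646 for the excess over B. NK cells read 3.70-fold below B cells, and the NK value lay just above the detection level of that array. No other probe set on the array measures Rel, so the value has no check within the gene.

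Rela encodes p65, the partner of p50 in the common NF-kappaB dimer. Its brighter probe set (DQ020177) read 459 in NKB, 964 in NK and 1037 in B. The dimmer one (BC003818) read 56.6 in NKB, 219 in NK and 179 in B, and was under the detection level in NKB. Both were lowest in NKB and close together in NK and B. Averaged over its probe sets, Rela was 2.85-fold lower in NKB than in NK and 2.67-fold lower than in B, and NK and B differed 1.06-fold. The average lies outside the folds of the single probe sets, which were 2.10-fold and at least 1.61-fold lower against NK, and 2.26-fold and at least 1.32-fold lower against B. With each probe set at the level first, the gene was 1.84-fold lower than in NK and 1.73-fold lower than in B, neither of which is called.

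Relb encodes the subunit of the slower, noncanonical pathway, and its p100 partner is encoded by Nfkb2. A pair of Relb probe sets agreed in order: BC019765 read 270 in NKB, 328 in NK and 902 in B, and BC034523 read 180 in NKB, 265 in NK and 581 in B. On these, NKB was 3.33-fold and 3.22-fold lower than B, and the differences from NK, 1.21-fold and 1.47-fold, did not reach 2-fold. The remaining probe set (DQ020179) had another order, with 42.0 in NKB, 273 in NK and 74.7 in B. It alone gives the at least 2.01-fold deficit against NK, and the gene average, 2.12-fold lower than NK and 2.50-fold lower than B, takes in its NKB reading under the level. With each probe set at the level first, Relb was 1.53-fold lower than NK, which is not called, and 2.28-fold lower than B.

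Nfkb1 and Nfkb2 encode the precursors p105 and p100, which are cut to the DNA-binding subunits p50 and p52 and which, uncut, act as inhibitors. Nfkb1 was flat: BC050841 read 598 in NKB, 426 in NK and 625 in B, and S89033 read 290 in NKB, 421 in NK and 382 in B, so that the gene differed 1.02-fold between NKB and NK and 1.17-fold between NKB and B. Nfkb2 was lower in NKB than in B on all 4 of its probe sets and lay between the other arrays in NK. The widest gap was that of AF155372, with 133 in NKB, 291 in NK and 1025 in B, at least 7.56-fold lower in NKB than in B. The narrowest was that of AK134081, with 322 in NKB, 390 in NK and 475 in B, a 1.47-fold difference that was not called. The other two probe sets read 50.7 and 110 in NKB, 148 and 265 in NK, and 344 and 426 in B. As an average Nfkb2 was 3.81-fold lower in NKB than in B and 1.91-fold lower than in NK, and 3.07-fold and 1.54-fold lower with each probe set at the level first.

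Nfkbia encodes IkappaB-alpha, the inhibitor that is destroyed first on activation and that NF-kappaB itself re-induces. Its 1 probe set (BC046754, chr12:56590845-56593567 on MM9) read 271 in NKB cells, 1059 in NK cells and 1084 in B cells. NK and B differed 1.02-fold, and NKB was 3.91-fold lower than NK and 4.01-fold lower than B. Among genes detected on either array, 3.61% had a lower difference against NK and 3.23% a lower one against B. Nfkbie, whose product IkappaB-epsilon binds c-Rel and p65 dimers, read 155 in NKB, 89.8 in NK and 267 in B, near the detection levels. It was 1.72-fold lower in NKB than in B and at least 1.11-fold higher than in NK, neither of which reached 2-fold.

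The nuclear IkappaB proteins bind p50 or p52 on DNA and can raise or lower transcription. Nfkbiz (IkappaB-zeta) differed by probe set. AB047549 read 666 in NKB, 641 in NK and 418 in B, and AB026551 read 466 in NKB, 538 in NK and 286 in B. On these the B array was lowest and no pair differed 2-fold. The third probe set (AB196497), designed on a transcript that spans 0.771 kb of the genome against 27.5 kb and 10.8 kb for the others, read 89.4 in NKB, 310 in NK and 344 in B. It was at least 2.54-fold lower in NKB than in B and at least 2.29-fold lower than in NK, and the gene average was not called in either comparison. Bcl3 was brightest in B on both probe sets, with BC021610 at 295 in NKB, 118 in NK and 407 in B, and BC156806 at 44.8 in NKB, 131 in NK and 341 in B. The gene average was 2.75-fold lower in NKB than in B and under the detection level in both NKB and NK, but BC156806 was under the level in NKB, and with each probe set at the level first the gene was 1.86-fold lower, which is not called. BC021610 was above the level in NKB, and on it NKB exceeded NK at least 2.10-fold.

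Malt1 encodes the paracaspase that works with BCL10 below the antigen receptor and cleaves, among others, inhibitors of the pathway. BC110487, designed on the longest transcript (chr18:65590650-65638446 on MM9), read 911 in NKB, 88.2 in NK and 116 in B, at least 6.49-fold above NK and at least 6.09-fold above B. BC046536, whose transcript ends at the same coordinate and starts at 65629991, read 891 in NKB, 359 in NK and 470 in B, 2.48-fold and 1.90-fold higher in NKB. AK045200, whose transcript shares the start of the longest one and ends at 65614400, read 144 in NKB, 259 in NK and 219 in B, 1.80-fold and 1.52-fold lower in NKB. The gene average of 489 in NKB, 202 in NK and 229 in B, 2.43-fold above NK and 2.14-fold above B, thus joins probe sets that went opposite ways. It takes in BC110487 readings under the level in NK and B, and with each probe set at the level first the gene was 2.08-fold above NK and 1.97-fold above B, the second of which is not called.

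**Figure D2:**
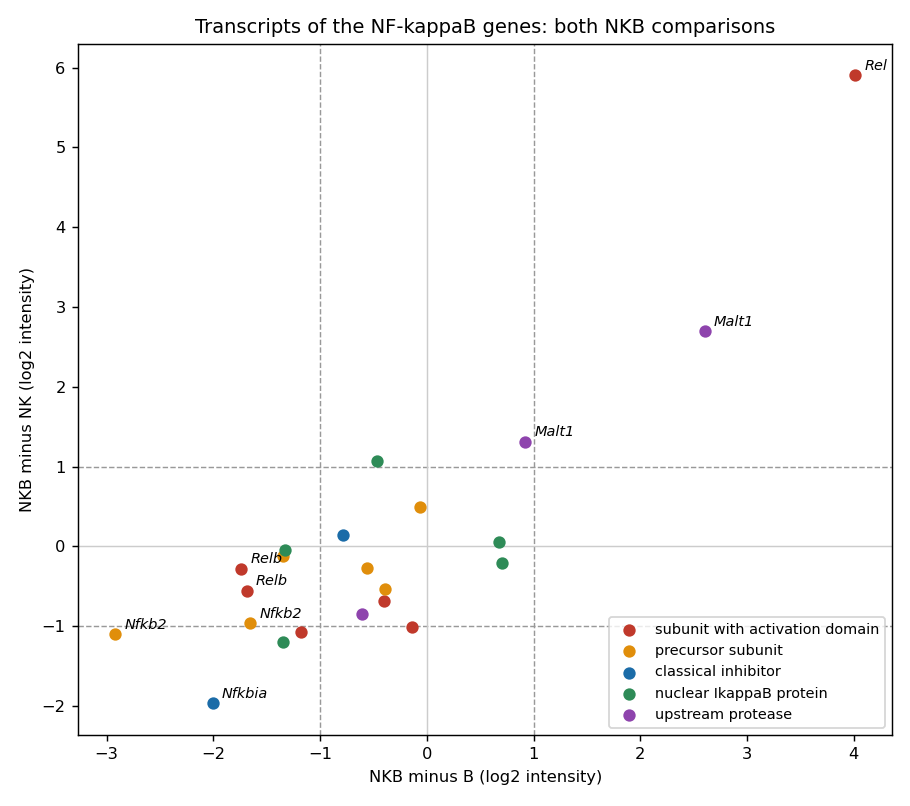
Log2 difference of each of the 22 probe sets between NKB and B (horizontal) and between NKB and NK (vertical), coloured by role, with dashed lines at 2-fold; both axes share the NKB array. Rel (4.02 and 5.90) and 1 Malt1 probe set (2.61 and 2.70) lie past 2-fold on both axes at the upper right, and Nfkbia (4.01-fold and 3.91-fold lower) lies at the lower left.

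Counted by probe set, NKB exceeded B in 2 of the 22 and was lower in 9, beside 17.8% and 16.3% of all probe sets detected on either array. Against NK the counts were 4 higher and 5 lower, beside 21.3% and 16.7%, and for NK against B 0 higher and 7 lower, beside 8.6% and 11.4%. The authors' deposited table sets no detection level. It lists 2 of the 22 as higher and 10 as lower for NKB over B, and 4 and 8 for NKB over NK. The share of all probe sets in that table was not computed, so these counts have no background beside them. With no level, 20.9% and 21.0% of the olfactory and vomeronasal receptor genes passed 2-fold in these comparisons, in either direction. Probe sets of the same gene had a pooled standard deviation of 0.96 (log2) in NKB against B for the 7 genes with several probe sets, beside 0.80 over 5915 genes of the array, and 0.86 in NKB against NK, beside 0.86 over 6212 genes.

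**Figure D3:**
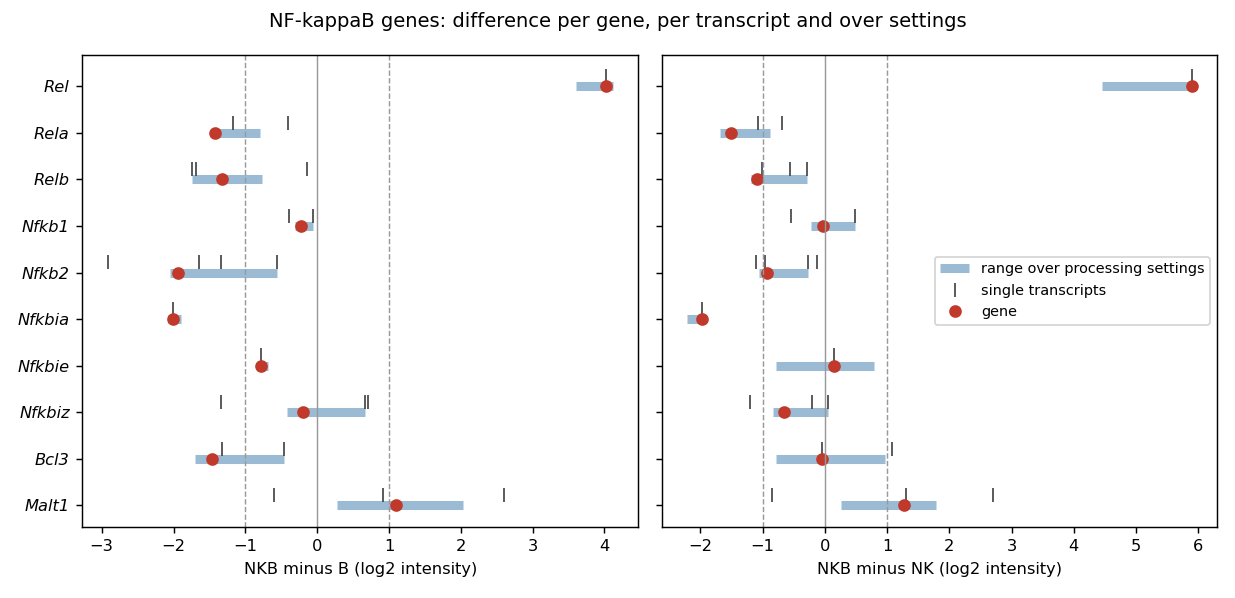
Log2 difference of each gene (red points) for NKB minus B and NKB minus NK, with its single probe sets (ticks) and the range over the main and 9 alternative settings (bars); dashed lines mark 2-fold. Rel stays between 3.60 and 4.12 against B, and Nfkbia between -2.07 and -1.90, whereas Malt1 runs between 0.27 and 2.03.

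NK cells differed from B cells in fewer of these genes. None of the 10 was higher in NK and 3 were lower (Rel, Nfkb2 and Bcl3), beside 7.44% higher and 9.68% lower of the genes detected on either array. The log2 differences were -1.89 for Rel and -1.41 for Bcl3, and Nfkb2 lay at the 2-fold threshold. Rela, Nfkb1, Nfkbia and Malt1 differed at most 1.15-fold, and Nfkbie was at least 1.90-fold lower in NK.

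Several of these genes have kappaB sites in their promoters and are targets of the factors they encode, which is why the promoter sequences are shown beside the values. RefSeq windows (build GRCm38.p6) were used for 6 of the genes, Rel, Rela, Nfkb2, Nfkbia, Nfkbie and Bcl3. Relb, Nfkb1 and Nfkbiz had no window, and Malt1 was left out. The 250 bases before each start were searched for the 10-base kappaB consensus on both strands. At least 1 match was found for 4 of them, Rel, Nfkb2, Nfkbia and Nfkbie, beside 4.46% of 27025 genes with a window. A match is a string of letters and not a measured binding site. The sequences run 5′ to 3′ in the direction of the gene, with the matches in capitals, and overlapping matches form 1 run. Rel (chr11:23770970-23771219, minus strand), the gene that was highest in NKB, holds 1 run. Nfkbia (chr12:55492648-55492897, minus strand), which was lowest in NKB, holds 1 match, and the most upstream Nfkb2 window (chr19:46304487-46304736, plus strand), also lowest in NKB, holds 2 runs. Rela (chr19:5637291-5637540, plus strand), shown as a gene lower in NKB without a match, holds 0.
Rel: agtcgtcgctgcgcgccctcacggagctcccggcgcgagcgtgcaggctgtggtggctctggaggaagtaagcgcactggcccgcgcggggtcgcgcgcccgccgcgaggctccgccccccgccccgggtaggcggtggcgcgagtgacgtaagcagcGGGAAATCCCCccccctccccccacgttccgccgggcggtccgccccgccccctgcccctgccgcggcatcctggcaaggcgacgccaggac
Nfkbia: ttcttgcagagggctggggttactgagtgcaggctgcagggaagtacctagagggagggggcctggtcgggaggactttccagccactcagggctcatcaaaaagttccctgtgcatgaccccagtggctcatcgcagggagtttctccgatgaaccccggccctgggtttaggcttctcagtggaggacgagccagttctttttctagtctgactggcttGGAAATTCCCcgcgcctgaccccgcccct
Nfkb2: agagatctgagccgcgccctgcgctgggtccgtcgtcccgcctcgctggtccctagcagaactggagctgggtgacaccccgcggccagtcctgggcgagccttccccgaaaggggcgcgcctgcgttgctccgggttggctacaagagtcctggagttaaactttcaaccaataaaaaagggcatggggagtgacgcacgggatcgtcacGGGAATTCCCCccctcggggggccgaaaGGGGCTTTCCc
Rela: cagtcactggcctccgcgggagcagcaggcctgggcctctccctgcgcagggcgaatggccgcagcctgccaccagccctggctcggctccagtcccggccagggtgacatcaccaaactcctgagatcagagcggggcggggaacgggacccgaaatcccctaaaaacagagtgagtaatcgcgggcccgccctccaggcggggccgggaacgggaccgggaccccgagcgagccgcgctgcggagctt
The Rel run contains GGGAAATCCC, which starts 92 bases before the annotated start and fits the consensus on both strands, and the Nfkb2 window contains GGGAATTCCC at 39 bases and GGGGCTTTCC at 11 bases before the start. The Nfkbia match GGAAATTCCC lies 29 bases before the start and fits the consensus on the opposite strand. Genes with a match stood on both sides of the comparison, since Rel was the gene furthest above B and Nfkb2 and Nfkbia were among the lower ones.

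Genes above and below the NF-kappaB factors in the pathway were compared in the same way. Of 93 other pathway genes on the array, 60 were detected on NKB or B, and NKB exceeded B in 7 of them and was lower in 11 (median log2 difference -0.14). Against NK cells 71 were detected on either array, with 14 higher and 10 lower (median -0.21). These counts for the NKB comparisons lie near the shares over all detected genes given above. For NK against B, 67 were detected on either array, with 6 higher and 13 lower (median -0.11), beside 7.44% and 9.68% of all detected genes. Tab3, Map3k14, Ltbr and Tlr9 were listed and are not analysed here.

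Like Nfkbia, the IkappaB genes Nfkbid and Nfkbib were lower in NKB than in B. Nfkbid (IkappaBNS, a nuclear IkappaB protein) read 81.5 in NKB, 167 in NK and 688 in B, 5.07-fold lower in NKB than in B. With each probe set at the level first, Nfkbid was 4.06-fold lower than in B. Nfkbib (IkappaB-beta) read 128 in NKB, 292 in NK and 368 in B, 2.72-fold lower than B and 2.15-fold lower than NK. These folds were 2.54 and 2.01 with each probe set at the level first. Of the 3 genes of this list, 2 of them detected in each comparison, 2 were lower than B and 1 was lower than NK. The shares lower over all detected genes were 15% and 15.1%.

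Of the 5 IKK and IKK-related kinase genes, 3 were detected in each NKB comparison, and 0 were called against B and 1, higher, against NK. Over all detected genes 14.3% were higher and 15% lower against B, and 17.3% and 15.1% against NK. Ikbkb, the catalytic IKK-beta, read 285 in NKB, 138 in NK and 244 in B, 2.03-fold above NK in NKB and 1.98-fold, not called, with each probe set at the level first, with its 8 probe sets spread between log2 differences of -0.05 and 2.32. Chuk (IKK-alpha) read 193 in NKB, 236 in NK and 322 in B, and Ikbke read 118 in NKB, 201 in NK and 161 in B. The regulatory subunit gene Ikbkg averaged under the level on every array, with 1 of its 5 probe sets above it on each.

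In the antigen receptor arm, 9 of 12 genes were detected on NKB or B and 11 on NKB or NK, and 1 was higher (Malt1) and 1 lower in both comparisons. Over all detected genes 14.3% were higher and 15% lower against B, and 17.3% and 15.1% against NK. The lower gene of this arm was Bcl10, the adaptor that binds MALT1, at 127 in NKB, 344 in NK and 437 in B. Its NKB reading was at least 3.22-fold lower than B and at least 2.54-fold lower than NK. Prkcb, a kinase below the B cell receptor, read 569 in NKB, 294 in NK and 977 in B. Ube2n, which builds ubiquitin chains for this pathway, read 86.3 in NKB, 249 in NK and 268 in B, and its deficit in NKB reached 2-fold, at 2.24-fold against B and 2.18-fold against NK, with each probe set at the level first. Its partner Ube2v1 read 639 in NKB, 370 in NK and 400 in B.

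In the noncanonical arm the adaptor Traf3, which keeps this branch off in resting B cells, was highest in NKB, with 801 in NKB, 135 in NK and 301 in B, 5.71-fold above NK and 2.66-fold above B. Both of its probe sets read higher in NKB, but against B they stood apart, at log2 differences of 0.74, which does not reach 2-fold, and 2.08. Against NK they were at 2.36 and 2.46. Birc3 (cIAP2) read 639 in NKB, 232 in NK and 688 in B on average, but its 3 probe sets ran between log2 differences of -1.50 and 1.87 against B. Traf2 (147 in NKB, 176 in NK and 246 in B) and Birc2 (324 in NKB, 173 in NK and 282 in B) were not called. In the linear ubiquitin list Otulin, a deubiquitinase, in NKB exceeded B 2.33-fold and NK 2.48-fold. Its 2 probe sets stood apart, at log2 differences of 0.27 and 2.16 against B. Sharpin was 2.47-fold lower than in B, or 1.78-fold, not called, with each probe set at the level first, and Rbck1 at least 2.02-fold lower than in NK, while Rnf31, the catalytic subunit, was not called.

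Among the receptors upstream, Cd79a, Cd79b and Tnfrsf13c were higher in NKB than in NK. Cd40, also a receptor of B cells, read 62.1 in NKB, 49.8 in NK and 154 in B, under the level on NKB and NK. Cd79a and Cd79b, the signalling chains of the B cell receptor, read 4056 and 3893 in NKB, 48.5 and 184 in NK, and 4977 and 9943 in B. Tnfrsf13c, the BAFF receptor gene, read 2712 in NKB, 151 in NK and 1668 in B. Of the 14 receptor genes, 7 were detected in each NKB comparison. Against B 0 were higher and 2 lower, Cd79b and Tlr1, beside 14.3% and 15% of all detected genes. Tlr1 read 69.3 in NKB, 47.7 in NK and 641 in B. Against NK 3 were higher and 1 lower, beside 17.3% and 15.1% of all detected genes. The lower one was Tnfrsf1a, a TNF receptor gene, at 212 in NKB, 712 in NK and 45.1 in B. Tnfrsf1b read 83.2 in NKB, 268 in NK and 111 in B. Of the 11 adaptor and receptor kinase genes, 6 were detected on NKB or B and 9 on NKB or NK. Irak4 was 2.23-fold higher and Irak2 2.23-fold lower in NKB than in B, while Tradd (304 in NKB, 311 in NK and 293 in B), Irak1 (213 in NKB, 255 in NK and 384 in B), Ripk1 (81.0 in NKB, 191 in NK and 102 in B) and Traf5 (469 in NKB, 357 in NK and 545 in B) were not called in either comparison. Irak4 was also 2.38-fold higher than in NK. Its 2 probe sets stood apart, at log2 differences of -0.14 and 2.76 against B.

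Of 12 genes that act as brakes on the pathway, 5 were detected on NKB or B and 7 on NKB or NK. In each comparison 0 were higher and 1 lower. Over all detected genes 14.3% were higher and 15% lower against B, and 17.3% and 15.1% against NK. Tnfaip3 encodes A20, an ubiquitin-editing inhibitor that NF-kappaB induces. It read 133 in NKB, 750 in NK and 101 in B, at least 5.53-fold lower in NKB than in NK, and was under the detection level in both NKB and B. Zc3h12a, an RNase that degrades inflammatory transcripts, including that of Rel, read 137 in NKB, 268 in NK and 423 in B, 3.09-fold lower in NKB than in B. With each probe set at the level first, Zc3h12a was 2.28-fold lower than in B. Its 3 probe sets ran between log2 differences of -3.23 and -0.14 against B. Itch, Tax1bp1 and Pdlim2 were not called.

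**Figure D4:**
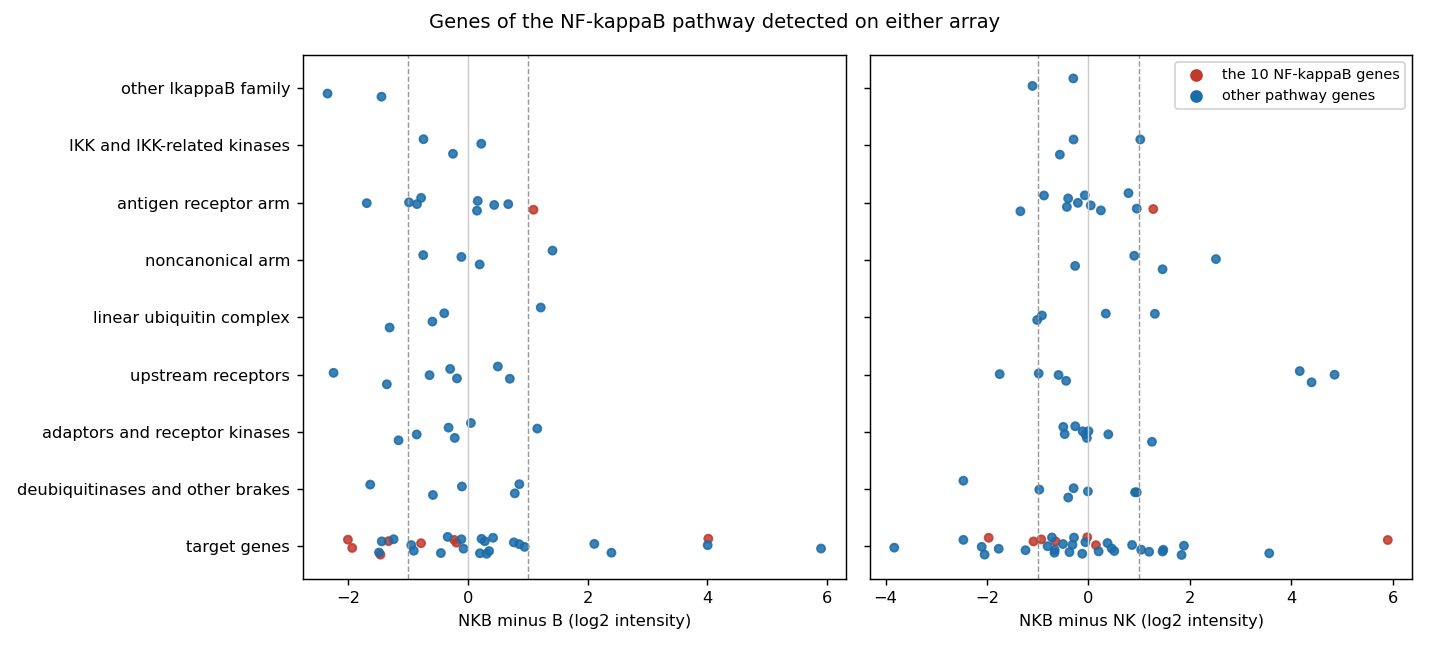
Log2 differences of the pathway genes detected on either array, by list, for NKB minus B and NKB minus NK; red points are the 10 NF-kappaB genes, blue points the other pathway genes, dashed lines mark 2-fold, and height within a list carries no meaning. Most points lie within 2-fold, with 7 higher and 11 lower of 60 other pathway genes against B.

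Target genes of NF-kappaB went both ways. The list of 40 includes 8 of the 10 genes above. Of the 32 others, 22 were detected on NKB or B, where 4 were higher and 3 lower in NKB, and 28 on NKB or NK, where 7 were higher and 6 lower. The shares over all detected genes were 14.3% and 15% against B and 17.3% and 15.1% against NK. The 4 higher than B were Irf4, Ccl5, Ccl3 and Vcam1. The 3 lower than B were Ccr7 (2.80-fold), Myc (2.71-fold) and Ltb (2.36-fold). Irf4, a transcription factor of activated B cells, read 1740 in NKB, 147 in NK and 330 in B, 5.27-fold above B and 11.8-fold above NK on its 1 probe set. The chemokine gene Ccl5 read 8916 in NKB, 30430 in NK and 114 in B, and Ccl4 read 91.8 in NKB, 1930 in NK and 100.4 in B. The leading genes at the low end against B were Nfkbia and Nfkb2 themselves.

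The 5 genes whose profile over the 3 arrays lay nearest to that of Rel were Pax5, Ass1, Hnrnpul2, Nucb2 and Dld. Distance was Euclidean on centred log2 values, with values under the detection level set to it. Of the 8757 other genes detected on any array, those with predicted or clone names were left out. The distances of the 5 genes were between 0.97 and 1.30, and all but Hnrnpul2 were under the level on NK. Pax5, the master regulator of the B lineage, read 10954 in NKB, 77.4 in NK and 1310 in B. Hnrnpul2, which encodes an RNA-binding protein, read 8664 in NKB, 416 in NK and 543 in B. Ass1, an enzyme of the urea cycle that kidney tubules also express, read 4117 in NKB, 51.6 in NK and 177 in B. Apart from Ass1, with 2 probe sets, each of these genes, like Rel, has 1.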

How the data were processed

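Gene expression was measured on NimbleGen arrays, 1 each for NKB, NK and B cells, from cDNA made with oligo dT primers and labelled with Cy3, per the labels. Titles and cell type fields gave the groups, because the sorting text for all 3 names long-term hematopoietic stem cells (LT-HSCs). The authors made the deposited intensities with RMA (submitters' processing notes, no version stated). Most transcripts, 44155 of 44170, have 3 probes, and positions refer to build MM9, per the file headers. The standard errors in those files have no stated scale and were not used. The authors also deposited log2 ratios of 2 arrays for transcripts past 2-fold. The series' value table differed from these intensities by at most 0.

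Gene names were updated by gene identifier with a RefSeq table (GRCm38.p6), which held 39057 transcripts and changed 5650 names. The 2284 without a name were left out. Transcripts of a gene were averaged on the log2 scale, values under the detection level (95th percentile over 901 olfactory or vomeronasal genes) were set to it, and genes were called at 2-fold. Steps ran in Python 3.11.15 and were tested on simulated data. Named are the 10 genes, the 2 highest and 2 lowest measured genes of each pathway list in both NKB comparisons, Chuk, Ikbkb, Ikbkg, Bcl10 and Map3k14, 1 further gene that is not reported here, the 5 genes nearest to Rel, and genes named beside these. The genes and lists were chosen with earlier results of these data known. Alternatives covered normalization, detection level, transcript averaging and the fold. Precision is limited by the number of arrays.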

Additional observations from a re-analysis of the deposited data

How the results depend on the processing

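Rel and Nfkbia kept their calls in both NKB comparisons under all 9 alternatives that give a difference per gene. For these genes, with 1 probe set each, only the new scalings and changed detection levels could have moved a call. Over the 10 genes and 3 comparisons, 238 of 270 alternative differences kept their call. The value table of the series gave 30 of the 270 and changed 0, because it holds the same intensities. The 1 called value that changed sign was Bcl3 in NK against B, which was 0.0065 with the 99th percentile level, where it takes the offset between the levels of both arrays.

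For the 10 genes, the counts of 2 higher and 5 lower in NKB against B became 1 and 2 at 3-fold, 1 and 3 with the brightest probe set, 1 and 2 at the 99th percentile, 1 and 3 with each probe set at the level before averaging, and 1 and 1 where every probe set had to pass. The counts of 2 higher and 3 lower in NKB against NK became 1 and 1 at 3-fold, at the 99th percentile and where every probe set had to pass. With each probe set at the level before averaging, 1 was lower. Where any probe set sufficed, 5 were lower, and Rel, Bcl3 and Malt1 were higher. The rules on every and on any probe set, and the level on each probe set, were chosen after seeing the data. For the rules on every and on any probe set, no share over all genes was computed, so these counts have no background. The 3 lower in NK against B became 1 at 3-fold and 0 at the 99th percentile, where none of the 10 was higher. With no replicates these are counts without a test.

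For the other pathway genes, NKB against B had 7 higher and 11 lower, which became 4 and 4 at 3-fold, 3 and 6 at the 99th percentile and 15 and 18 with no detection level, with 16 higher for the brightest probe set and 12 with the level at the array median. NKB against NK had 14 and 10, which became 7 and 6 at 3-fold and 4 and 6 at the 99th percentile, with 20 lower at the array median and 21 with no level. NK against B had 6 and 13, which became 3 and 7 at the 99th percentile, with 10 higher for the brightest probe set and 14 at the array median and with no level.

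Over all genes, the 1097 higher and 1148 lower in NKB against B became 499 and 458 at 3-fold, 475 and 699 at the 99th percentile, 2076 and 2087 at the array median and 3187 and 3131 with no level, and 1865 were higher with the brightest probe set. The 1409 and 1230 in NKB against NK became 732 and 519, 566 and 700, 2462 and 2402, and 3670 and 3599 under the same settings, and 2216 were higher with the brightest probe set. The 536 and 697 in NK against B became 224 and 225, 181 and 266, 1211 and 1251, and 2006 and 1943, with 854 higher for the brightest probe set and 458 lower with equal medians. The median difference over the 3354 genes detected on all arrays was -0.13 for NKB against B, 0.06 for NKB against NK and -0.22 for NK against B (log2), and a new quantile normalization made it -0.23, -0.15 and -0.12. Of the calls on the 10 genes, it changed only Nfkb2 in NK against B, to -0.94. The cause of these shifts was not tested. No paired analysis was possible because each population has 1 array. Low signal limits Nfkbie, Bcl3 and the NK value of Rel, which lie near the detection level. It also limits the NKB averages of Relb (127) and Nfkb2 (124), which lay under the NKB level of 136. That of Rela (161) lay just above it.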
